A study of Rattus norvegicus with 58 samples.

Results

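Livers of rats at the 2 highest doses of 4-methylcyclohexanemethanol (MCHM) were set against livers of rats at the 4 lower doses. MCHM is an alicyclic alcohol used to wash coal. Male Harlan Sprague-Dawley rats were given it by gavage for 5 days, and messenger RNA of whole liver and kidney was measured on Affymetrix rat genome arrays. The high dose group held the 8 liver arrays at 300 and 500 mg/kg (4 each), and the lower dose group held the 16 liver arrays at 0.1, 1, 10 and 100 mg/kg (4 each), chosen by the dose in the sample titles. They are 24 of the 58 arrays of the series. The 5 liver arrays at 0 mg/kg were kept out of the contrast, so that they could be read beside it, and the 24 kidney arrays at the same 6 doses served for a comparison between organs. The sources used here name neither the vehicle nor the age of the rats. The labels call the arrays of a dose biological replicates without tying each to a numbered animal, so the p-values measure the spread between these samples.

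The liver takes up absorbed chemicals and clears them through cytochrome P450 enzymes, conjugating enzymes and export pumps, many of them set by the nuclear receptors CAR and PXR. It also makes most of the body's cholesterol and fatty acids, under control of the SREBP transcription factors, and burns fatty acids under control of the receptor PPAR alpha. Hepatocytes secrete most plasma proteins, among them clotting factors, complement and hormone carriers, while Kupffer cells, lymphocytes and endothelium line or fill the sinusoids.

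All values below are deposited log2 RMA values, so a difference of 1 is a doubling, and levels are compared within a gene only. The arrays carried the tissue their labels named. Albumin (Alb) averaged 14.82 on the high dose arrays and 14.83 on the lower dose arrays, and transthyretin (Ttr) averaged 14.19 and 14.21. Defining markers of pancreas (Amy2a3, Prss1, Cpa1), of fat (Adipoq, Plin1) and the kidney markers Umod and Nphs1 lay below the arrays' 40th percentile, which averaged 4.67, in both groups. The kidney markers Slc34a1 and Aqp2 lay between 5.02 and 5.35. The correlation between any pair of liver arrays ran from 0.988 to 0.994 with no identical pair. The actin control probe sets, whose 3' level minus the 5' level is a sign of RNA quality, gave 1.98 ± 0.10 on high dose arrays (SD, n = 8), 1.90 ± 0.12 on lower dose arrays (SD, n = 16) and 1.99 ± 0.14 on control arrays (SD, n = 5), and the part of RNA quality in the results was not tested.

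High dose livers differed from lower dose livers in 496 of 11229 genes tested (4.42% called, limma's moderated test, Benjamini-Hochberg adjusted p under 0.05). Of these, 179 rose (1.59% of genes tested) and 317 fell (2.82%). Drug-metabolising, cholesterol and fatty acid synthesis genes were among those that rose, and genes of plasma proteins, metallothioneins and non-parenchymal cells were among those that fell. Most differences were small. The median rise was 0.23 and the median fall -0.24 on the log2 scale, 35 genes passed the test with at least a 1.5-fold difference (13 higher, 22 lower) and 5 with at least a 2-fold one. Bright probe sets were called more often, with 9.01% called among the brightest genes and 1.5% among the dimmest when tested genes were put into 4 equal classes. Without adjustment 2173 genes had a p under 0.05. The count rested on some arrays more than others: it was 293 without replicate 1 of 500 mg/kg and 329 without replicate 2, and 8 without all 4 arrays at 500 mg/kg. Without all 4 arrays at 300 mg/kg it was 405.

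Genes of xenobiotic metabolism held the clearest separation. Cyp3a23-3a1, a cytochrome P450 inducible through PXR, had a lowest, median and highest log2 value of 12.85, 13.04 and 13.17 on the 8 high dose arrays. The 16 lower dose arrays gave 12.10, 12.55 and 12.68, and the 5 control arrays lay between 12.39 and 12.65. No high dose array overlapped a lower dose or control array, and the difference was 0.54 (SE 0.05, adjusted p = 8.96e-07), a 1.45-fold rise. Cyp3a18, a CYP3A enzyme higher in male rats, gave 12.45, 12.67 and 12.80 on high dose arrays, against 11.97, 12.20 and 12.42 on lower dose arrays and 11.76 to 12.36 on controls. These groups did not overlap either (difference 0.46, SE 0.05, adjusted p = 1.09e-05). Ces2c, a carboxylesterase that hydrolyses ester drugs, gave 7.86, 8.09 and 8.54 on high dose arrays, against 7.18, 7.48 and 7.96 on lower dose arrays and 7.24 to 7.74 on controls. In 7 of 8 high dose livers it was above every lower dose liver (difference 0.63, SE 0.09, adjusted p = 0.000493).

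Of 19 tested CAR and PXR targets, 4 rose and 2 fell, and 13 had a difference above 0 (median 0.12). Over all genes tested 1.59% rose, 2.82% fell, 51% lay above 0 and the median was 0.003, and the list counts that follow are to be read against these shares. Among the brightest 2807 genes 111 rose and 142 fell, so the shares of rises and falls over all genes are low for a bright list. Cyp2c6v1, another drug-metabolising P450, was the fourth to rise (0.12, adjusted p = 0.029). The 2 that fell were Slco1a4, a basolateral uptake carrier of organic anions (-0.24, adjusted p = 0.0162), and Abcc2, the canalicular pump for conjugates (-0.23, adjusted p = 0.041). Without adjustment 10 of the 19 had a p under 0.05, and the largest difference of the list, 0.67, belonged to a member that did not pass. Cyp3a2 and the microsomal epoxide hydrolase Ephx1, named by hand, had differences of 0.03 and 0.02 that did not pass (adjusted p = 0.56 and 0.92). The sulfotransferase Sult2a6, of the family that sulfates steroids and bile acids, showed the largest rise of all genes called. It gave 9.57, 10.13 and 10.70 on high dose arrays, against 7.46, 8.82 and 10.07 on lower dose arrays and 7.93 to 9.75 on controls. Its groups overlapped, with 5 of 8 high dose arrays above all lower ones, and the difference of 1.33 (SE 0.26, adjusted p = 0.00374) was a 2.51-fold rise. Acsm2, a mitochondrial synthetase that activates medium-chain and aromatic acids, rose by 0.59 (SE 0.14, adjusted p = 0.0162), and among 18 conjugation and hydrolysis genes it was the only rise beside 1 fall, of the UDP-glucose synthesising enzyme Ugp2 (-0.24, adjusted p = 0.0311). None of 13 alcohol and aldehyde oxidation genes and none of 5 AhR targets passed limma's adjusted test (3 and 1 at an unadjusted p under 0.05), and Cyp1a1 differed by 0.31 (adjusted p = 0.17).

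Among 21 tested targets of Nrf2, the regulator of the antioxidant response, 4 rose, 0 fell and 17 lay above 0 (median 0.14). Gsta3, a glutathione S-transferase, gave 7.21, 8.35 and 9.08 on high dose arrays, against 6.15, 7.17 and 8.35 on lower dose arrays and 6.67 to 8.01 on controls. The ranges overlapped, with 4 of 8 high dose arrays above all lower ones, and the difference was 0.88 (SE 0.23, adjusted p = 0.0229). Me1, a source of NADPH, rose by 0.34, the export pump Abcc4 by 0.26 and the pentose phosphate enzyme Tkt by 0.15 (adjusted p = 0.0162, 0.0346 and 0.0402). The Tkt call held in 13 of 24 fits that each left out an array. Without adjustment 10 of the 21 had a p under 0.05. Nqo1, Hmox1 and Gclm, named by hand, had differences of 0.06, 0.07 and -0.01 (adjusted p = 0.81, 0.60 and 0.95) and do not stand for the list.

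**Figure D1:**
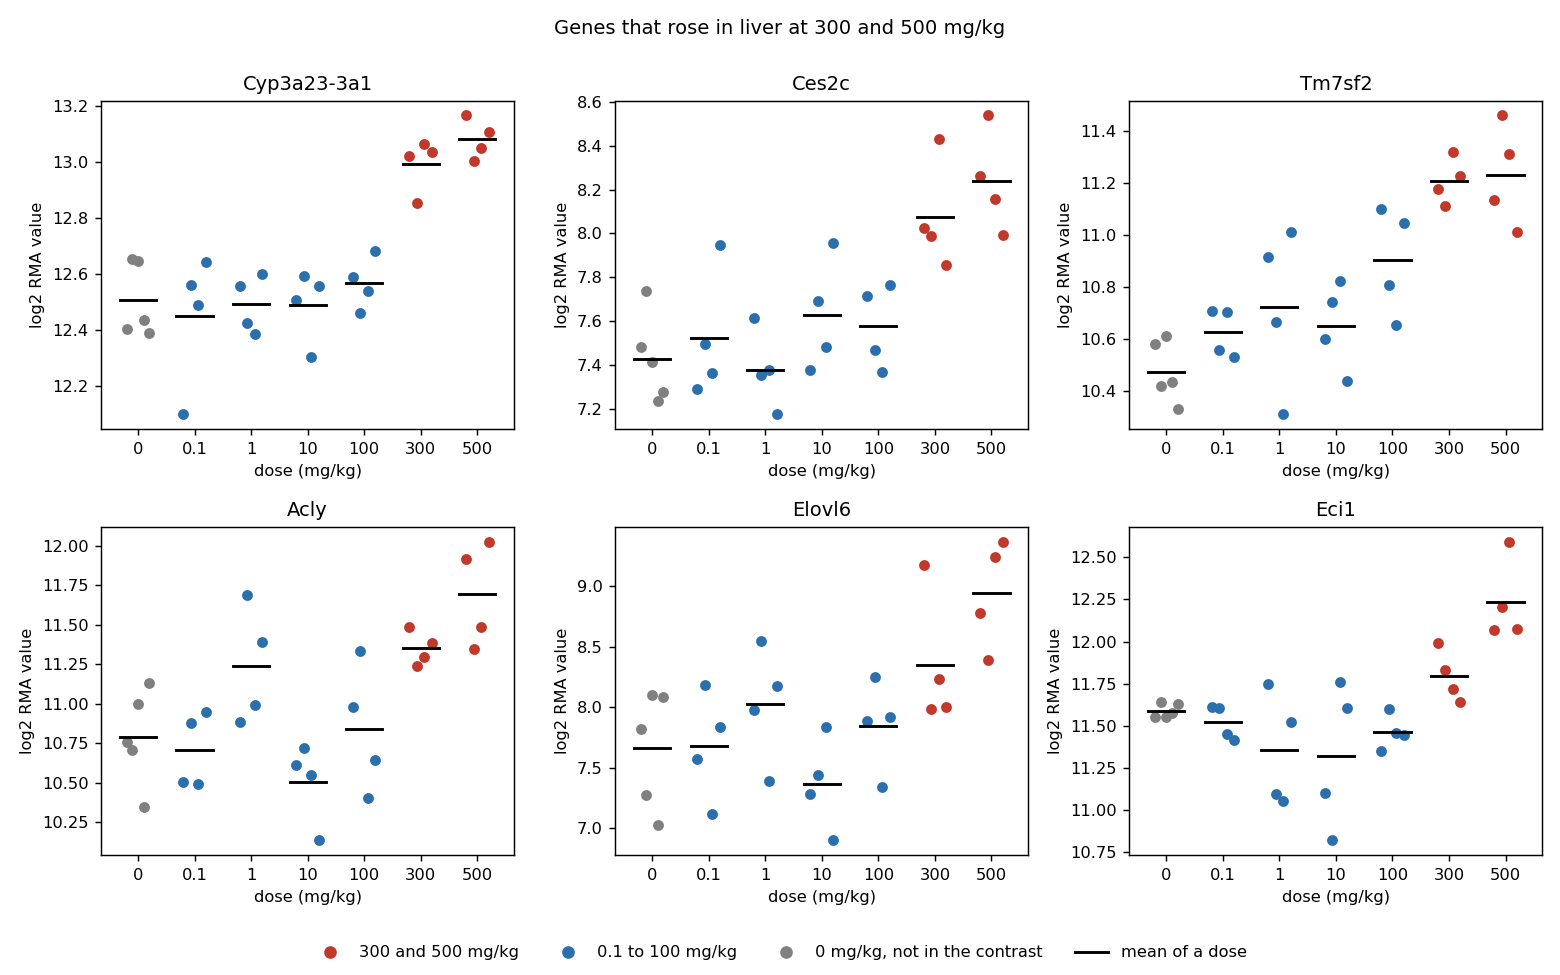
Log2 RMA value (y axis) of 6 genes that rose, on each liver array by dose in mg/kg (x axis), with the mean of each dose as a bar. The 8 arrays at 300 and 500 mg/kg lie above all 16 lower dose arrays for Cyp3a23-3a1, and 7 of 8 do so for Ces2c and Tm7sf2, while Acly and Elovl6 overlap more.

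Cholesterol synthesis genes lay above 0 almost throughout. Of 21 tested genes of cholesterol synthesis and uptake, 20 had a difference above 0, as did 51% of all genes, and the list median was 0.15. Of the 21, 4 rose (19% of the list, against 1.59% of all genes) and 0 fell. Tm7sf2, a sterol reductase that acts after lanosterol, gave 11.01, 11.20 and 11.46 on high dose arrays, against 10.31, 10.71 and 11.10 on lower dose arrays and 10.33 to 10.61 on controls. In 7 of 8 high dose livers it was above every lower dose liver (difference 0.49, SE 0.08, adjusted p = 0.000946). Ebp, the sterol isomerase, had a median of 11.07 on high dose arrays, against 10.68 on lower dose arrays, with controls between 10.55 and 10.78, and 5 high dose arrays exceeded all lower ones (difference 0.34, SE 0.06, adjusted p = 0.00227). Dhcr7, which makes cholesterol in the last step, rose by 0.35 (SE 0.10, adjusted p = 0.0381), and Fdps, which makes farnesyl diphosphate, by 0.31 (SE 0.09, adjusted p = 0.0391). Those calls held in 13 and 14 of 24 fits that each left out an array. Insig1, a sterol-sensing regulator, and the pathway enzymes Sqle and Lss had differences of 0.43, 0.11 and 0.09 and did not pass (adjusted p = 0.18, 0.70 and 0.67).

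The promoters of the 4 genes that rose are shown because SREBP acts together with the CCAAT-binding factor NF-Y. Each window runs from 250 bases before to 50 bases after the gene's start in RefSeq (GRCr8), in the gene's own direction, with CCAAT on either strand in capitals.
Tm7sf2, chr1:212789492-212789791, minus strand: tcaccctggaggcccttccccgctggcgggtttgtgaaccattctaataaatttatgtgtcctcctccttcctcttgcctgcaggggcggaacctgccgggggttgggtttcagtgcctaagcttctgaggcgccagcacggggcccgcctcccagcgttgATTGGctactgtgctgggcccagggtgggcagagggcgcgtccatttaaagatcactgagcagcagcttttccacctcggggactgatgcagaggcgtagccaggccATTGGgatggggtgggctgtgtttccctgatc
Ebp, chrX:16971212-16971511, plus strand: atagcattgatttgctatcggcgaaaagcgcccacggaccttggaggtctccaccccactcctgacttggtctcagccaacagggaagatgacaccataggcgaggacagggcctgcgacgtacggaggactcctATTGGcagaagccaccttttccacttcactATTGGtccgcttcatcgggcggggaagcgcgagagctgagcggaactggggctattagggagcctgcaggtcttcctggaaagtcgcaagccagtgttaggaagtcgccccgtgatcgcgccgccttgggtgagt
Fdps, chr2:176804767-176805066, minus strand: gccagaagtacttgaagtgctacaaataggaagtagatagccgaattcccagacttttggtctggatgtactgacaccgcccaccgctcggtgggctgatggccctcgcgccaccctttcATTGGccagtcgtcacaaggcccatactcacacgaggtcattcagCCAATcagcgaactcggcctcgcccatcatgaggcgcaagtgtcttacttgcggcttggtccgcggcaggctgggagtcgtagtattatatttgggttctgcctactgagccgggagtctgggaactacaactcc
Dhcr7, chr1:208444184-208444483, plus strand: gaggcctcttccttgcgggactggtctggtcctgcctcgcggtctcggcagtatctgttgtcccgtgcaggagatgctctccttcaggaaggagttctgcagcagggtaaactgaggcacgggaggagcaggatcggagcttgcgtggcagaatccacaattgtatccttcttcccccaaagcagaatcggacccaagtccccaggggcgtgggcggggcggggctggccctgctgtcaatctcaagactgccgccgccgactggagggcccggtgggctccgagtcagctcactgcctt

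The windows of Tm7sf2, Ebp and Fdps each held 2 CCAAT matches and that of Dhcr7 held 0. Of 17 tested cholesterol list genes with a window, 14 (82.4%) held CCAAT on either strand. The share was 80.6% (25 of 31) in the cell cycle list, where 3 genes fell and 0 rose, and 65.0% (13 of 20) in the fatty acid synthesis list, so it is not particular to lists that rose. It stood in 73 of 151 windows of genes that rose (48.3%), in 110 of 267 of genes that fell (41.2%) and in 37.8% of the 9354 windows of tested genes. The sterol element TCACNCCAC was in 0 of the 17 and in 1.09% of all windows, which says only that these letters are not in these stretches.

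Fatty acid synthesis genes included several of the largest rises. Of 24 tested genes, 7 rose, 2 fell and 21 lay above 0 (median 0.27). Elovl6, which elongates palmitate, gave 7.98, 8.59 and 9.37 on high dose arrays, against 6.90, 7.84 and 8.55 on lower dose arrays and 7.03 to 8.10 on controls. Above all lower dose arrays were 4 of the 8 (difference 0.92, SE 0.19, adjusted p = 0.00691). Acly, which makes cytosolic acetyl-CoA from citrate, gave 11.24, 11.44 and 12.03 on high dose arrays, against 10.14, 10.80 and 11.69 on lower dose arrays and 10.34 to 11.13 on controls (difference 0.70, SE 0.15, adjusted p = 0.00609). Every high dose array was above every control, although 1 lower dose array, at 1 mg/kg, exceeded most of them.

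Fatty acid synthase (Fasn) rose by 0.65 (SE 0.14, adjusted p = 0.00908). The lipogenic regulator Thrsp rose by 0.81 (SE 0.24, adjusted p = 0.0486), with 10.83, 11.64 and 12.11 on high dose arrays, against 9.68, 10.49 and 12.27 on lower dose arrays and 10.39 to 11.08 on controls. The highest value of Thrsp was a lower dose liver, and its call held in 6 of 24 fits that each left out an array. Gpam, which starts glycerolipid synthesis, and Tmem97, a sterol-regulated membrane protein, rose by 0.50 and 0.41 (adjusted p = 0.0428 and 0.00586), as did Me1, which also stands among the Nrf2 targets. The Gpam call held in 11 of 24 such fits. The 2 that fell were the desaturase Scd2 (-0.50, adjusted p = 0.00487) and Elovl2, an elongase of polyunsaturated fatty acids (-0.24, adjusted p = 0.034).

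Genes of fatty acid oxidation moved both ways. Of 34 tested PPAR alpha targets and fatty acid oxidation genes, 2 rose, 4 fell and 13 lay above 0 (median -0.06). Eci1, a mitochondrial enoyl-CoA isomerase, gave 11.64, 12.03 and 12.59 on high dose arrays, against 10.82, 11.45 and 11.76 on lower dose arrays and 11.55 to 11.64 on controls (difference 0.60, SE 0.11, adjusted p = 0.00237). It exceeded every lower dose liver in 6 of 8 high dose livers. Ehhadh, the peroxisomal multifunctional enzyme, rose by 0.48 (SE 0.09, adjusted p = 0.00237).

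Cpt1a, the rate-limiting step of mitochondrial fatty acid entry, gave 9.79, 10.53 and 11.08 on high dose arrays, against 10.36, 11.04 and 11.48 on lower dose arrays and 10.29 to 11.15 on controls. It fell by 0.58 (SE 0.14, adjusted p = 0.0144), and 3 of 8 high dose arrays were below all lower ones. Ppara itself gave 4.58, 5.36 and 6.09 on high dose arrays, against 4.33, 6.54 and 7.41 on lower dose arrays and 5.21 to 7.42 on controls. The lowest liver was a lower dose one, and the difference of -1.05 (SE 0.31, adjusted p = 0.0454) passed in 8 of 24 fits that each left out an array. Acsl1, a long-chain acyl-CoA synthetase, fell by 0.15 (adjusted p = 0.0175), and the peroxisomal membrane protein Pxmp4 by 0.81 (adjusted p = 0.0498, held in 5 of 24 such fits). Cyp4a1 and Angptl4, 2 targets that PPAR alpha agonists induce, had differences of 0.34 (adjusted p = 0.092) and -0.55 (adjusted p = 0.11).

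Proteasome and respiratory chain genes had small differences, nearly all above 0. All 30 tested proteasome genes had a difference above 0, as did 51% of all genes. Their median was 0.11, and 7 rose (23.3% of the list, against 1.59% of all genes). Psmb5, a catalytic subunit, gave 11.20, 11.37 and 11.43 on high dose arrays, against 11.11, 11.19 and 11.32 on lower dose arrays and 11.21 to 11.30 on controls (difference 0.16, SE 0.03, adjusted p = 0.00303). In 7 of 8 high dose livers it was above every lower dose liver, and the eighth lay among the lower ones. The other 6 were Psma1, Psma5, Psmb2, Psmd3, Psmd7 and Psmd8. The calls of Psma5 and Psmd8 held in 8 and 7 of 24 fits that each left out an array. Of 39 tested oxidative phosphorylation genes, 37 lay above 0 (median 0.08), and 6 rose, with differences between 0.09 and 0.16. They were the ATP synthase subunits Atp5po, Atp5f1c and Atp5pb, the cytochrome c oxidase subunit Cox6a1, the complex I subunit Ndufb2 and the Rieske protein Uqcrfs1. The Ndufb2 call held in 5 of 24 such fits. The mean of the 39 genes on an array ran from 11.12 to 11.32 on high dose arrays, against 11.11 to 11.21 on lower dose arrays and 11.14 to 11.20 on controls, with 6 of 8 high dose arrays above all lower ones. Sod1, the cytosolic superoxide dismutase, rose by 0.13 (SE 0.02, adjusted p = 0.00321) with no overlap of the groups (13.23, 13.24 and 13.35 on high dose arrays, against 13.05, 13.15 and 13.23 on lower dose arrays and 13.14 to 13.19 on controls). Gpt, alanine aminotransferase, was the only call among 35 amino acid breakdown genes (0.63, SE 0.13, adjusted p = 0.0063), a share of 2.86% that is below the 4.42% of all genes.

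**Figure D2:**
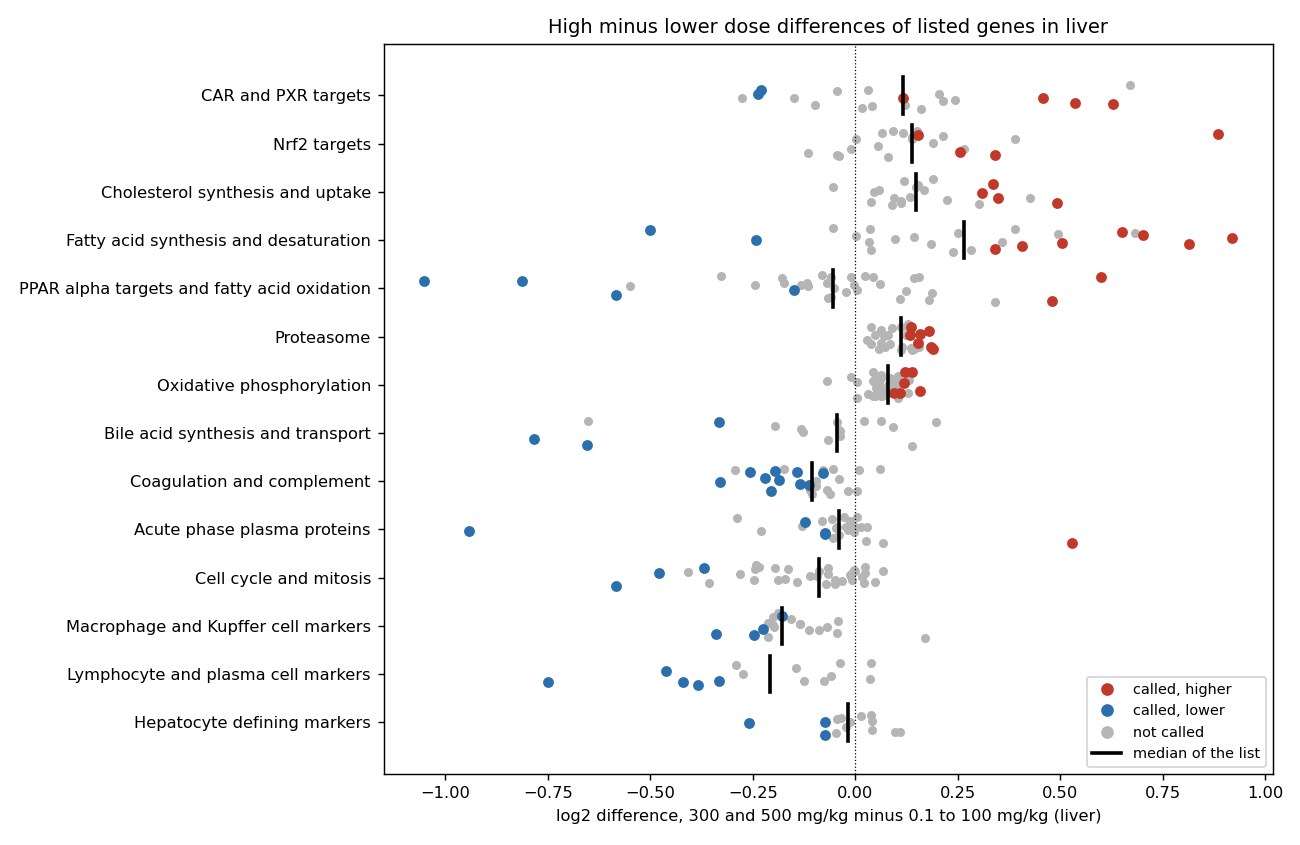
Log2 difference of each tested gene (x axis, 300 and 500 mg/kg minus 0.1 to 100 mg/kg in liver), by list (y axis), with called genes in colour and the list median as a black bar. All 30 proteasome genes and 20 of 21 cholesterol genes lie above 0, while 22 of 25 coagulation and complement genes lie below 0.

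The metallothioneins, small zinc-binding proteins induced by metals and glucocorticoids, held the largest fall. Mt2A gave 8.57, 9.68 and 11.77 on high dose arrays, against 10.27, 11.23 and 13.02 on lower dose arrays and 9.74 to 11.88 on controls. The groups overlapped, with 5 of 8 high dose arrays below all lower ones, and 2 of the 4 livers at 300 mg/kg stood at 11.52 and 11.77. The difference was -1.52 (SE 0.37, adjusted p = 0.0171), a level 2.86-fold lower. Mt1 gave 5.08, 5.74 and 6.51 on high dose arrays, against 6.11, 6.60 and 7.11 on lower dose arrays and 5.78 to 6.58 on controls (difference -0.84, SE 0.16, adjusted p = 0.00339). Slc30a1, the plasma membrane zinc exporter and another metal-induced gene, chosen here after its values were seen, fell by 0.39 (adjusted p = 0.0172). The other 12 tested genes of the glucocorticoid-responsive list did not pass. Of all 14, 7 lay above 0 and 7 below (median -0.09), and 5 had a p under 0.05 without adjustment. Tat, Fkbp5 and Tsc22d3, named by hand and all above 0, differed by 0.30, 0.09 and 0.12 (adjusted p = 0.47, 0.65 and 0.50).

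The metallothionein promoters are shown because both genes fell and lie side by side on chromosome 19. The windows are built as above, with TGCNCNC on either strand in capitals. This pattern is looser than the core of the metal response element, so a stretch in capitals need not be that element.
Mt2A, chr19:10838659-10838958, minus strand: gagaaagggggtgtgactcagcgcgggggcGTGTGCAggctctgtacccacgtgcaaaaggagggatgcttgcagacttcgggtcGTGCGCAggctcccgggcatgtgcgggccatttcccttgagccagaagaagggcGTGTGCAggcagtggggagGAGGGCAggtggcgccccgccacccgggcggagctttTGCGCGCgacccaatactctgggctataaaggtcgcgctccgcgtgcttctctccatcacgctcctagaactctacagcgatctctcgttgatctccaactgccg
Mt1, chr19:10832926-10833225, minus strand: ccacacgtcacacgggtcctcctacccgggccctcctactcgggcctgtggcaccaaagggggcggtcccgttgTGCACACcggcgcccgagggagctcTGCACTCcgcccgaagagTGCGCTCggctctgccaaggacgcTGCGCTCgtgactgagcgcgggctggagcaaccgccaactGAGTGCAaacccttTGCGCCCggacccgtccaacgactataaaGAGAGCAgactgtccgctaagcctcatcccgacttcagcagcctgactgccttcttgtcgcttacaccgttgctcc

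The Mt1 window held 7 matches to TGCNCNC and the Mt2A window 5. At least 1 match stood in 60.9% of all windows, so that holding the motif sets neither promoter apart, and this search was chosen with the data already seen.

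Clotting and complement genes had mostly small differences below 0. Of 25 tested coagulation and complement genes, 10 fell (40% of the list, against 2.82% of all genes), 0 rose and 3 lay above 0 (median -0.11). The list was bright, with a median level of 12.13, and among the brightest 2807 genes 142 fell. Cpb2, a carboxypeptidase that slows the breakdown of clots, gave 11.95, 11.99 and 12.06 on high dose arrays, against 12.12, 12.19 and 12.33 on lower dose arrays and 12.12 to 12.21 on controls. Its groups did not overlap, and the difference was -0.21 (SE 0.03, adjusted p = 4.07e-05). The complement proteases C1r and C1s fell by 0.33 and 0.22, C5 by 0.19 and the terminal component C8b by 0.14. Heparin cofactor II (Serpind1), the tissue factor inhibitor Tfpi, factor IX (F9), protein C (Proc) and plasminogen (Plg) fell by 0.20, 0.26, 0.14, 0.11 and 0.08. The calls of C1s, Tfpi and Plg were near the threshold (adjusted p = 0.0483, 0.0464 and 0.0495) and held in 8, 8 and 6 of 24 fits that each left out an array. The mean of the 25 genes on an array ran from 11.22 to 11.38 on high dose arrays, against 11.36 to 11.52 on lower dose arrays and 11.36 to 11.45 on controls, and 7 of 8 high dose arrays were below all lower ones.

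Other secreted carriers differed in what they did. Albumin (Alb) and transthyretin (Ttr) had differences of -0.01 and -0.02 that did not pass (adjusted p = 0.62 and 0.56). Corticosteroid-binding globulin (Serpina6) fell. It gave 11.57, 11.86 and 12.38 on high dose arrays, against 12.19, 12.44 and 12.58 on lower dose arrays and 12.14 to 12.45 on controls, with 6 of 8 high dose arrays below all lower ones (difference -0.49, SE 0.07, adjusted p = 0.000403). Thyroxine-binding globulin (Serpina7) fell by 0.78 (SE 0.21, adjusted p = 0.0326), with a median of 9.27 on high dose arrays, against 10.12 on lower dose arrays, and a wide spread of 8.25 to 10.87 among the high dose livers. Apolipoprotein A1 (Apoa1) gave 12.95, 13.11 and 13.52 on high dose arrays, against 13.32, 13.45 and 13.54 on lower dose arrays and 13.25 to 13.54 on controls (difference -0.26, SE 0.05, adjusted p = 0.00244). Apoa4 fell by 0.37 (adjusted p = 0.0198).

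Of 25 acute phase plasma proteins, 4 fell (A2m, Itih1, Serpina1 and Fgb) and 1 rose. Another probe set of Fgb, a fibrinogen chain, had a difference of 0.05, and the Fgb call was lost when its probe sets were averaged. Alpha-2-macroglobulin (A2m), a strong acute phase protein in the rat, gave 8.37, 8.73 and 9.94 on high dose arrays, against 9.37, 9.92 and 10.96 on lower dose arrays and 9.15 to 10.85 on controls (difference -0.94, SE 0.19, adjusted p = 0.00487). Alpha-1-acid glycoprotein (Orm1), also an acute phase protein, went the other way with 12.23, 12.54 and 12.86 on high dose arrays, against 11.58, 12.06 and 12.49 on lower dose arrays and 11.59 to 12.39 on controls (difference 0.53, SE 0.10, adjusted p = 0.00316). Each had 5 of 8 high dose arrays outside the lower range. Of 14 hepatocyte-defining genes, 3 fell (Apoa1, Serpina1 and Fgb) and 6 lay above 0. Their median was -0.02, and 0.01 after quantile normalization.

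The growth hormone receptor (Ghr) and its secreted target Igf1 fell by 0.25 and 0.11 (adjusted p = 0.0019 and 0.0449), the 2 calls among 20 genes of the growth hormone and IGF axis. The Igf1 call held in 7 of 24 fits that each left out an array and was lost without the filter, after quantile normalization and with the replicate block. Ghr gave 11.42, 11.53 and 11.72 on high dose arrays, against 11.67, 11.79 and 12.06 on lower dose arrays and 11.78 to 11.88 on controls, and every high dose array was below every control. Cyclin D1 (Ccnd1), which drives entry into the cell cycle, gave 8.34, 9.09 and 9.78 on high dose arrays, against 9.38, 9.87 and 10.49 on lower dose arrays and 9.03 to 10.08 on controls. It fell by 0.84 (SE 0.15, adjusted p = 0.00237), and 2 further probe sets of the gene differed by -0.79 and -0.65. It was the only call among 16 G1 regulators, of which 10 lay above 0 (median 0.06). Of 35 tested cell cycle and mitosis genes, 3 fell (8.57%, against 2.82% of all genes), 0 rose and 6 lay above 0 (median -0.09). They were the microtubule regulator Stmn1 (-0.37), the mitotic kinesin Kif11 and the proliferation marker Mki67 (-0.58, adjusted p = 0.048), the last holding its call in 6 of 24 fits that each left out an array. The list was dim, with a median level of 5.56, and Kif11 passed the filter through lower dose arrays alone.

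Genes that export sterols and phospholipid into bile fell. Abcg5 and Abcg8 together form the canalicular sterol pump. Abcg5 gave 7.73, 7.92 and 8.56 on high dose arrays, against 8.24, 8.90 and 9.56 on lower dose arrays and 7.74 to 8.83 on controls, so that the controls overlapped the high dose range. Its difference was -0.78 (SE 0.13, adjusted p = 0.00146), and that of Abcg8 was -0.65 (SE 0.16, adjusted p = 0.0169). Abcb4, which moves phospholipid into bile, fell by 0.33 (adjusted p = 0.00905). These were the 3 calls among 17 bile acid and transport genes, of which 5 lay above 0.

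Macrophage, lymphocyte and endothelial markers had mostly differences below 0, and some fell. In a whole organ, fewer cells of a type and less RNA per cell cannot be told apart. Of 19 macrophage and Kupffer cell markers, 4 fell and 1 lay above 0 (median -0.18). They were Clec4a3 (-0.34), Laptm5 (-0.25), the growth factor receptor Csf1r (-0.18) and the scavenger receptor Cd163 (-0.22). The Csf1r call held in 8 of 24 fits that each left out an array. It was lost without the filter, after quantile normalization and with the replicate block. Cd163 gave 6.82, 7.04 and 7.27 on high dose arrays, against 7.0, 7.31 and 7.58 on lower dose arrays and 7.28 to 7.47 on controls (adjusted p = 0.0474, held in 7 of 24 fits that each left out an array). The list mean ran from 8.03 to 8.51 on high dose arrays, against 8.29 to 8.63 on lower dose arrays and 8.38 to 8.59 on controls, with 5 of 8 high dose arrays below all lower ones. The defining Kupffer cell marker Clec4f averaged 10.36 on high dose arrays and 10.56 on lower dose arrays (difference -0.20, adjusted p = 0.11).

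Of 14 lymphocyte and plasma cell markers, 5 fell and 2 lay above 0 (median -0.21). Jchain, the joining chain of secreted antibodies, gave 5.50, 5.88 and 6.48 on high dose arrays, against 6.11, 6.55 and 7.37 on lower dose arrays and 6.27 to 6.84 on controls (difference -0.75, SE 0.16, adjusted p = 0.00652). Another probe set of Jchain had a difference of 0.06 that did not pass, so the fall rests on the brighter one. Perforin (Prf1) fell by 0.46, Coro1a by 0.42, Cd8a by 0.38 and the leukocyte antigen Ptprc by 0.33 (adjusted p = 0.00166, 0.00652, 0.0454 and 0.0379). The calls of Cd8a and Ptprc held in 10 and 12 of 24 fits that each left out an array. That of Ptprc was also lost when its probe sets were averaged. The T cell marker Cd3e lay at the filter level, at 4.64 on high dose arrays and 4.68 on lower dose arrays. The list mean ran from 5.33 to 5.66 on high dose arrays, against 5.49 to 5.89 on lower dose arrays and 5.41 to 5.69 on controls, so controls spanned much of both ranges.

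The chemokine Ccl5, made by T and natural killer cells, fell by 0.60 (SE 0.09, adjusted p = 0.000824), with 7 of 8 high dose arrays below all lower ones. Of 18 endothelial markers 4 fell (Cav2, Tie1, Emcn and Kdr) and 4 lay above 0 (median -0.06). The Kdr call was lost when its probe sets were averaged. The defining endothelial markers Pecam1, Lyve1 and Stab2 had differences of -0.003, -0.03 and -0.12. Of 10 class II genes 1 fell (Cd74, -0.36, adjusted p = 0.0357). Stellate cell and fibroblast markers gave 0 calls of 23 (median -0.07, 4 at an unadjusted p under 0.05) and erythrocyte markers 0 of 4. Of 5 bile duct markers 1 fell (Slpi), and of 9 adipose markers 1 fell (Cfd, complement factor D, -0.31, adjusted p = 0.00173), while the other 8 lay above 0. What part the lower levels of some macrophage, lymphocyte and endothelial markers have in the other differences was not tested.

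**Figure D3:**
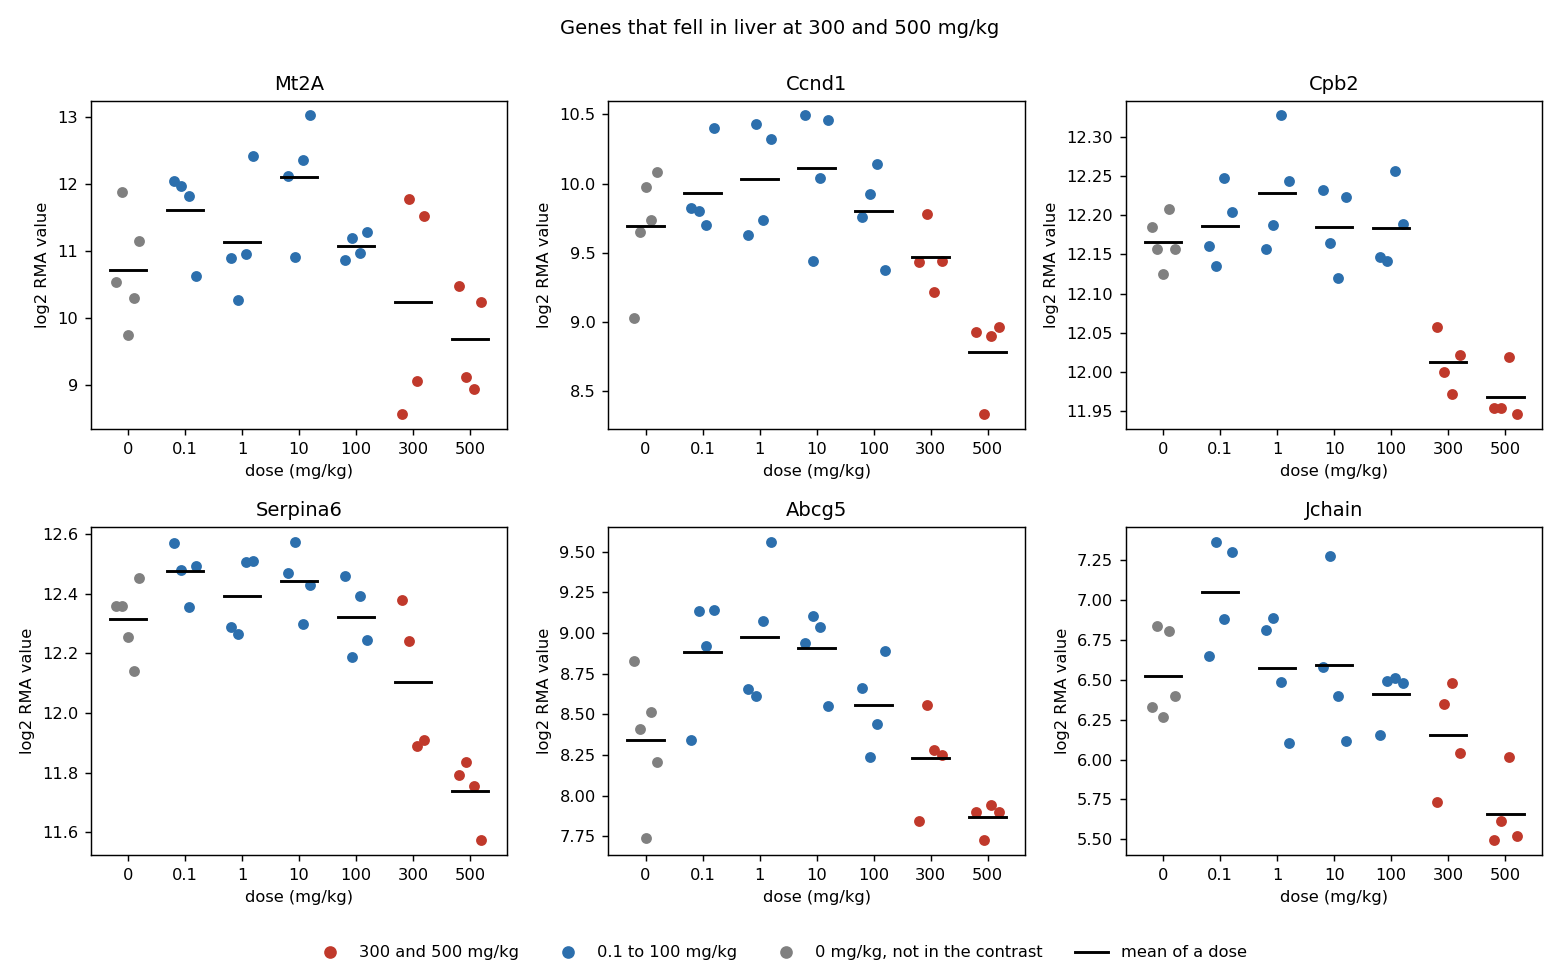
Log2 RMA value (y axis) of 6 genes that fell, on each liver array by dose in mg/kg (x axis), with the mean of each dose as a bar. Cpb2 separates all 8 high dose arrays from all 16 lower dose arrays, whereas for Mt2A 2 arrays at 300 mg/kg stay at 11.52 and 11.77, and control arrays of Abcg5 reach down to 7.74.

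**Figure D4:**
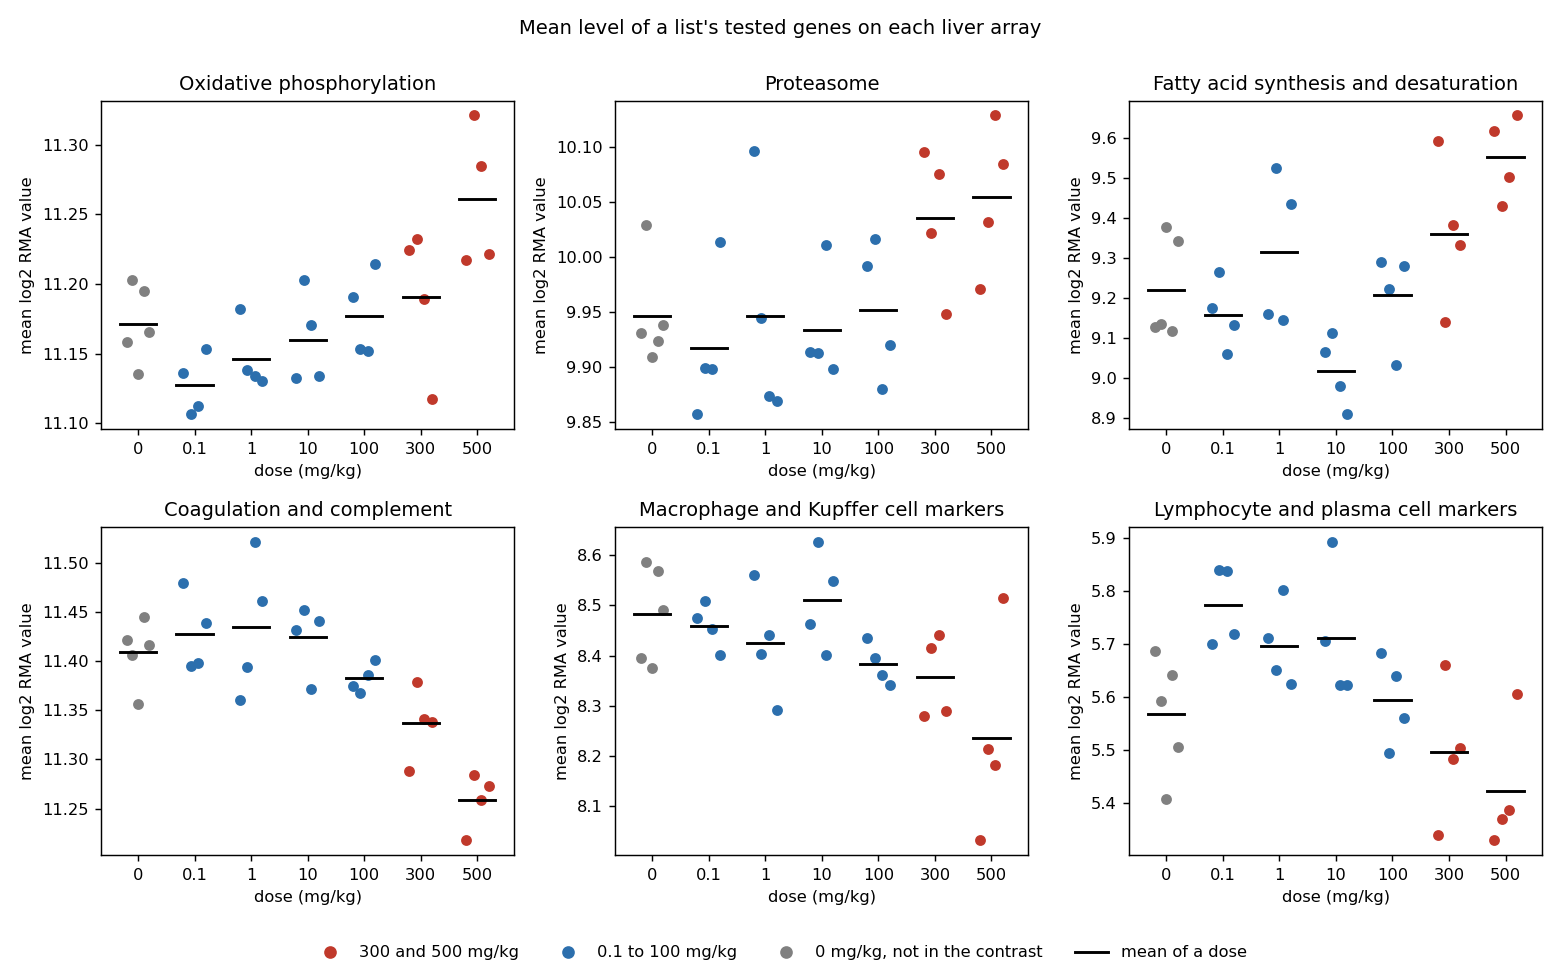
Mean log2 RMA value of the tested genes of 6 lists (y axis) on each liver array, by dose in mg/kg (x axis), with the mean of each dose as a bar. For coagulation and complement 7 of 8 high dose arrays lie below all 16 lower dose arrays, and for oxidative phosphorylation 6 of 8 lie above them.

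Only 7 genes (0.0623% of those tested) showed no overlap between the 8 high and the 16 lower dose arrays. Higher were Cyp3a23-3a1, Cyp3a18, Sod1, Asap2 and Cltb, and lower were Cpb2 and Atg2b. Sod1, Cltb and Atg2b are named for this count, after their values were seen. Asap2, a GTPase-activating protein for Arf, gave 7.78, 8.06 and 8.40 on high dose arrays, against 7.26, 7.62 and 7.75 on lower dose arrays and 7.22 to 7.93 on controls (difference 0.46, SE 0.07, adjusted p = 0.000403). Cltb, a clathrin light chain, rose by 0.22 (adjusted p = 0.00227), and Atg2b, which supplies lipid to growing autophagosomes, fell by 0.31 (adjusted p = 0.00237), although control arrays of Atg2b reached 7.49, inside its high dose range.

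Other large or well separated differences fell outside the lists. Nrep, a small neuronal regeneration related protein, fell by 0.41 (SE 0.05, adjusted p = 5.62e-05), with 10.97, 11.13 and 11.37 on high dose arrays, against 11.35, 11.54 and 11.77 on lower dose arrays and 11.39 to 11.84 on controls. The kinase Nim1k (-1.37), lysyl oxidase (Lox, -1.29), glutaminyl cyclase (Qpct, -0.92), the cyclin-dependent kinase phosphatase Cdkn3 (-0.89) and the small GTPase Rab30 (-0.89) were among the largest falls, each on overlapping ranges. Spin2b also fell, but it lay below the 40th percentile on all 8 high dose arrays (2.88 to 3.94) and passed the filter through lower dose arrays alone, so its size is not given. Sh3yl1, a lipid-binding SH3 protein, fell by 0.77 and was below all lower dose arrays on 7 of 8 high dose arrays. Of the rises, neprilysin (Mme) reached 0.70, Spmip11 0.68 and Poteml2 0.66. The mitochondrial carrier Slc25a44 (0.42), the beta-tubulin Tubb4b (0.43) and the GABA transporter Slc6a13 (0.34) rose with 7, 7 and 6 high dose arrays above all lower ones.

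Several stress and regulatory lists had no call. None of 24 integrated stress response genes passed limma's adjusted test (19 above 0, median 0.14, 4 at an unadjusted p under 0.05), and none of 19 aminoacyl-tRNA synthetases did (15 above 0, median 0.09, 5 unadjusted). Likewise 0 of 16 p53 targets, 0 of 25 interferon genes, 0 of 8 urea cycle genes and 0 of 17 immediate early genes passed, with 3, 0, 2 and 0 at an unadjusted p under 0.05. Of 38 endoplasmic reticulum folding and degradation genes 2 fell, Prdx4 (-0.21) and Erlec1 (-0.21), a share near that of all genes. The 16 clock genes gave 0 calls (7 at an unadjusted p under 0.05), and 9 lay above 0 (median 0.03). Their differences went both ways, from -1.06 for Dbp to 0.56, with Nr1d2 at -0.74 (adjusted p = 0.14 for Dbp and 0.10 for Nr1d2). No source used here gives the hour at which livers were taken.

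The control livers, which the contrast did not use, mostly sat with the lower doses. The control mean was nearer to the lower dose mean than to the high dose mean in 431 of the 496 called genes (86.9%), against 60.7% of all genes tested. This held for 160 of the 179 genes that rose and 271 of the 317 that fell. Among the exceptions were Mt1, Cpt1a, Abcg5 and Abcg8. For Abcg5 and Abcg8 the lower dose livers stood above the controls. Abcg8 gave 6.06, 6.75 and 7.83 on lower dose arrays, against 5.42 to 6.66 on controls. The called genes were chosen by the gap between the high and lower dose means, which rest on 8 and 16 arrays. That choice alone can raise the share nearer to the lower doses, so the share over all genes is not a like background. The position of the controls is given as description only.

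The 2 high doses were also set against the lower doses one at a time, in comparisons that share the 16 lower dose arrays. In a fit of 6 dose groups, 300 mg/kg differed from the lower doses in 5 genes (0.0445%). The rises were Cyp3a23-3a1 (0.49) and Cyp3a18 (0.39), 0.0178% of genes tested, and the falls were Cfd (-0.39), Nrep (-0.38) and Cpb2 (-0.18), 0.0267%. At 500 mg/kg 350 genes differed (3.12%), 151 higher (1.34%) and 199 lower (1.77%). That count was 168, 221 and 175 without replicate 1, 2 or 3 of 500 mg/kg, and the count at 300 mg/kg ran from 1, without its replicate 1 or 4, to 11, without its replicate 2 or without replicate 1 of 1 mg/kg. Of the 496 genes called in the pooled contrast, which used both doses, 381 lay farther from the lower doses at 500 mg/kg than at 300 mg/kg (76.8%, against 55.4% of all genes). Set against each other, 500 and 300 mg/kg differed in 0 genes (0.00%, limma's adjusted test), with 602 at an unadjusted p under 0.05.

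The smallest p between the 2 high doses belonged to Lrrc20, Cpt1a and Mef2c, at 0.47, -0.70 and -0.60 for 500 minus 300 mg/kg (adjusted p = 0.83 for each). Cpt1a was lower than at the lower doses by 0.94 at 500 mg/kg, with a difference of -0.23 at 300 mg/kg, and Ccnd1 gave -1.19 at 500 mg/kg and -0.50 at 300 mg/kg. Cyp3a23-3a1 gave 0.58 at 500 mg/kg and 0.49 at 300 mg/kg, and Tm7sf2 gave 0.50 and 0.48. Tfrc, the transferrin receptor (0.96), and the class II gene RT1-Ba (-1.86) were among the largest calls at 500 mg/kg and did not pass in the pooled contrast (adjusted p = 0.0932 and 0.196). RT1-Ba ran from 4.47 to 9.51 on the high dose arrays, against 8.22 to 9.89 on the lower dose arrays.

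Within the lower doses, 100 mg/kg was set against 0.1, 1 and 10 mg/kg. It differed in 0 genes (0.00%), with 488 at an unadjusted p under 0.05. The smallest p belonged to the glucosamine phosphate deaminase Gnpda1 (-0.53, adjusted p = 0.42) and the zinc transporter Slc30a7 (-0.33, adjusted p = 0.42). Leaving the 100 mg/kg arrays out of the contrast gave 481 calls.

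The same doses in kidney gave a contrast that shares no arrays with that in liver. The high minus lower difference differed between liver and kidney in 129 of 11772 genes (1.10%, limma's adjusted test of the interaction), 64 with a higher value in liver (0.544%) and 65 with a lower one (0.552%). The organs share dose and replicate numbers, and with these as a random block the count was 243. Of the 490 genes called in liver and measured by the same probe set, 80 (16.3%) differed between the organs, 32 that rose and 48 that fell in liver. In kidney itself 150 genes passed (1.27%), 57 higher (0.484%) and 93 lower (0.790%), and 21 of the 490 did, 18 in the same direction and 3 in the opposite one. Sult2a6, Cyp3a23-3a1 and Cyp3a18 differed by -0.04, -0.05 and 0.09 in kidney, where all 3 were dim (lower dose means of 3.92, 2.96 and 3.18). Mt2A was bright in both organs. This gene, at 12.05 in lower dose kidneys, differed by -1.52 in liver and 0.07 in kidney (difference between organs -1.58, SE 0.41, adjusted p = 0.0398), and Mt1 by -0.84 and 0.16 (-1.0, SE 0.22, adjusted p = 0.0121).

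Of the 490 genes called in liver and measured by the same probe set, 178 (36.3%) had differences of opposite sign in the organs. The share was 44.5% over all genes tested in both. Among the 129 genes that differed between the organs, 113 had opposite signs, which choosing genes by the gap between organs favours. Acsl1 differed by -0.15 in liver and 0.68 in kidney (difference between organs adjusted p = 0.0279), although its liver fall did not pass in the fit of both organs (adjusted p = 0.615) and high dose kidneys were widely scattered (SD 0.87, n = 8, against 0.09, n = 16, in lower dose kidneys). For the export pump Abcc4 the values were 0.26 in liver and -0.26 in kidney (adjusted p = 0.00421). Its kidney difference alone did not pass limma's adjusted test (adjusted p = 0.0614). Sectm1b differed by 0.26 in liver and -0.55 in kidney (adjusted p = 3.26e-05). Acly, the citrate lyase, differed by 0.70 in liver and -0.01 in kidney (adjusted p = 0.0279), and Acsm2, which was bright in kidney at 13.09, by 0.59 in liver and -0.16 in kidney (adjusted p = 0.0035). The kidney differences of Acly and Acsm2 alone did not pass (adjusted p = 0.991 and 0.642). Protein C (Proc) differed in the same direction in both organs, by -0.11 in liver and -0.51 in kidney (adjusted p for the difference between organs 0.000616). Its liver fall did not pass in the fit of both organs (adjusted p = 0.157).

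**Figure D5:**
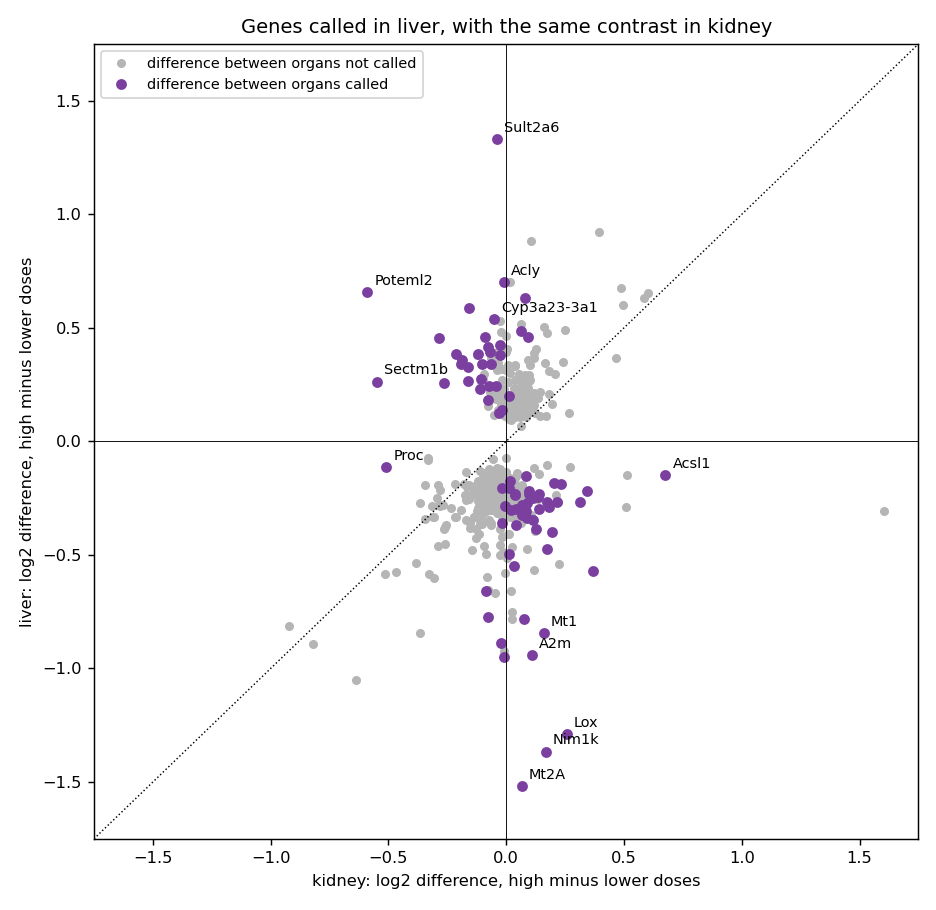
Log2 difference of high minus lower doses in liver (y axis) against the same difference in kidney (x axis) for the 490 genes called in liver and measured by the same probe set, with the 80 genes that differed between the organs in purple and equality as a dotted line. Sult2a6 stands at 1.33 in liver and -0.04 in kidney, and Mt2A at -1.52 in liver and 0.07 in kidney.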

How the data were processed

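Livers and kidneys of 58 samples were measured on Affymetrix arrays, 1 array per sample. The authors deposited log2 values per probe set made with RMA, per the submitters' processing notes, which give no version. The values ran from 1.75 to 14.85 with 0 missing, and 0 sample columns were left unmapped. No source used here states if both organs were normalized in 1 run. Arrays carry no read depth, and their number limits the precision.

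Of 31099 probe sets, 20826 had 1 gene symbol in the platform annotation, 436 had several, 9780 had none and 57 were controls. The gene identifiers of 20758 of the 1-symbol sets were found in the RefSeq table of GRCr8. To be kept, a probe set had to exceed the 40th percentile of an array on 4 or more arrays of the fit, and the brightest stood for its gene, so 11229 of 14217 genes were tested and 2988 were not. Of the called genes, 0 passed the filter through the high dose arrays alone and 5, all falls, through the lower dose arrays alone.

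Models were fitted with limma 3.58.1 in R 4.3.3 (lmFit, then eBayes with trend, two-sided, Benjamini-Hochberg over all genes tested, called at an adjusted p under 0.05). The pooled contrast had 2 groups and 22 residual degrees of freedom, single doses came from a fit of 6 dose groups, and the organ difference from a fit of 4 groups. SE is that of the fit. Fits were tested on simulated data with known changes. Promoter windows came from RefSeq and were found for 9354 tested genes.

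The members, gene lists and named genes were chosen with earlier results of these data known, so no list gets a test, and its count is read against the shares over all genes. Named were the 15 largest rises and falls, the 8 smallest p each way and called list members. Where under 3 members of a list were called, members with the smallest p could be named. For other contrasts the 5 largest calls each way or the 3 smallest p were named. Cell type markers came from a set list. Named by hand outside this rule were Cyp3a2, Ephx1, Nqo1, Hmox1, Gclm, Insig1, Sqle, Lss, Tat, Fkbp5, Tsc22d3, Cyp4a1, Angptl4 and Dbp. None of these passed in the pooled contrast, and they do not stand for their lists. Alternatives were other filters, probe set rules, eBayes settings, array weights, normalizations, a block for the replicate number, a minimum of 1.5-fold, other dose groupings and each array left out. Leaving out all arrays of 300 or of 500 mg/kg was chosen after seeing the data. Replicate numbers do not pair the arrays (mean correlation of deviations -0.011 over 60 same-numbered pairs).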

Additional observations from a re-analysis of the deposited data

Results flagged for a closer look

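Within groups of the same dose, single arrays stood far from the others (Dixon's test at the 95% level) in 14 of 312 groups checked over 39 genes, and chance flags about 1 in 20 groups. At 500 mg/kg they were replicate 2 for Gpt (10.06, others 9.66 to 9.72) and Ccnd1 (8.34, others 8.90 to 8.96), replicate 3 for Cpb2 (12.02, others 11.95 to 11.95) and replicate 4 for Cd163 (7.27, others 7.0 to 7.02). At 300 mg/kg it was replicate 2 for Cpt1a (11.08, others 10.65 to 10.72), and over both high doses replicate 4 of 300 mg/kg for Psmb5 (11.20, others 11.33 to 11.43). At 100 mg/kg they were replicate 1 for Psmb5 (11.32) and Jchain (6.15) and replicate 3 for Cltb (7.83) and Atg2b (7.63). At 0.1 mg/kg they were replicate 2 for Thrsp (11.91, others 10.26 to 10.47) and replicate 4 for Mt2A (10.63, others 11.81 to 12.04) and Ccnd1 (10.40). Among controls it was replicate 3 for Ptprc (6.92).

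The high minus lower difference differed between liver and kidney by the interaction test for the 10 genes with the largest such differences. Liver minus kidney values were 1.37 for Sult2a6, 1.25 for Poteml2, 1.09 for Mylk3, 0.81 for Sectm1b and 0.76 for Akr1b8. They were -1.58 for Mt2A, -1.55 for Lox, -1.53 for Nim1k, -1.05 for A2m and -1.0 for Mt1. For Mylk3 and Akr1b8 the liver differences were 0.05 and -0.002, and the kidney ones -1.05 and -0.76. In kidney Sult2a6, Nim1k and A2m were dim (lower dose means of 3.92, 3.17 and 3.22), near or below the level at which probe sets were filtered.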

How the results depend on the processing

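The pooled contrast gave 496 calls and between 405 and 630 under the other settings, except 35 with a 1.5-fold minimum and 8 without the 500 mg/kg arrays. Leaving out the 4 arrays at 300 mg/kg, which also leaves fewer arrays, gave 405. Leaving out single arrays gave 293 to 621. For 300 mg/kg the count of 5 became 2 without the intensity trend, 0 with the 1.5-fold minimum and 8 with 7 dose groups, and 1 to 11 with an array left out. For 500 mg/kg the count of 350 became 573 with array weights and 50 with the 1.5-fold minimum, and 168 to 428 with an array left out. The difference between organs, at 129, became 261 with array weights, 23 with the 1.5-fold minimum and 243 with dose and replicate number as a random block, and 88 to 190 with an array left out. The cause of these changes was not tested. Both contrasts with 0 calls kept 0 throughout. With the replicate block the counts were 478 (pooled), 4 (300 mg/kg), 297 (500 mg/kg) and 143 (organs), and 4 of 24 arrays correlated best with their own number. No named gene changed sign among the calls. Of 115 named called genes, 68 kept their call whichever array was left out, 108 lost it without the 500 mg/kg arrays and 24 without the 300 mg/kg arrays. Genes near the filter level and dim lists such as the cell cycle are limited by signal over background.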
